A study of Mus musculus with 16 samples.

Results

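The 10 genes described here belong to the NRF2 pathway, the main transcriptional response of mammalian cells to oxidants and electrophiles, and were measured in 16 mouse liver RNA-seq libraries. They were chosen by name: the transcription factor gene Nfe2l2, its repressor gene Keap1, and the target genes Nqo1, Gclc, Gclm, Txnrd1, Srxn1, Hmox1, Gsr and Osgin1. Each name matched 1 identifier among 55357 genes in the count table, and all 10 were among the 14421 genes that passed the filter on low counts. AUG livers carry a telomerase RNA gene, Terc, labelled mTERC CUG/AUG, and del7 livers carry a Terc with a deletion of 7 nucleotides at positions 29 to 35. Each mutant has a wild-type group of its own line, AUG_WT and del7_WT, and each group has 4 libraries. All mice were untreated. The labels give no age, sex or strain, and they do not say whether CUG/AUG stands for a replaced codon or for a pair of alleles. Nothing in the labels ties each library to an animal of its own, so every p-value reflects only how much these libraries vary, and that variation may be technical.

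NRF2, the protein of Nfe2l2, is normally bound by KEAP1, an adaptor of the CUL3 ubiquitin ligase, and is degraded. When reactive cysteines of KEAP1 are modified by oxidants or electrophiles, NRF2 accumulates, pairs with small MAF proteins and binds antioxidant response elements near its target genes. In liver these targets supply glutathione, keep thioredoxin and glutathione reduced, and detoxify quinones and heme. Part of this control acts on the NRF2 protein, which RNA counts do not measure.

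The first 250 bases before the annotated start of each gene were searched for the core letters of the antioxidant response element, the DNA sequence that NRF2 binds, to show which of these genes carry it next to their start. RefSeq promoter sequences of GRCm38.p6, an older build than the one used for the counts, were at hand for 7 of the 10 genes, in 9 entries, and not for Gclc, Hmox1 and Gsr. The letters searched were TGACNNNGC and TGAGNNNGC, on both strands, where N is any base. TGACNNNGC was present in 10.2% and TGAGNNNGC in 14.4% of 32851 promoter entries of the same length, and either of them in 23.0%. At least 1 match was found for 5 of the 7 genes, and none was found in this window for Keap1 or Nqo1. Counted by entry, as the shares above are, it was 5 of 9, since Txnrd1 had a match in 1 of its 3 entries. The 5 stretches with a match are shown on the strand of the gene, with the matched letters in capitals. They are a description of the sequence and do not show binding.
Nfe2l2, chr2:75704880-75704913, minus strand: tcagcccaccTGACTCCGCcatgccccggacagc
Gclm, chr3:122245408-122245446, plus strand: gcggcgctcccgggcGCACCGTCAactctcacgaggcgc
Txnrd1, chr10:82859099-82859137, plus strand, the second of 3 entries: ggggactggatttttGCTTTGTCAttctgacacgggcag
Srxn1, chr2:152105351-152105502, plus strand: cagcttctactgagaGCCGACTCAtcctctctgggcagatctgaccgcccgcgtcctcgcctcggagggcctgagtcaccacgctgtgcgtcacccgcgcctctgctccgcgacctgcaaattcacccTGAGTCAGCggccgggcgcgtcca
Osgin1, chr8:119437033-119437071, plus strand: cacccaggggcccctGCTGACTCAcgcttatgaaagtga
Srxn1, the sulfiredoxin gene, was the only one of these with 2 matches, and both were of the TGAGNNNGC form.

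Total gene counts per library ranged from 7714058 to 14629022, and the 10 genes had between 88 and 3822 counts each. Hepatocyte markers summed to 48315 to 166327 CPM per library (counts per 1000000 counted reads, after scaling by the trimmed mean of M-values), and all 8 had counts in every group. 1 library, AUG_WT replicate 1, was set apart from the rest: it lay at 126.1 on the first principal component, against at most 10.7 for any other, and its hepatocyte marker sum was the lowest. Several of the values it moves are given with and without it. Terc is not analysed here, so the genotypes were not checked against its reads. In tissue RNA, fewer cells of a type and less RNA per cell cannot be told apart.

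Among these genes Gclc was the most abundant and Nqo1 the least. Levels between genes are compared as CPM per kilobase of exon, with lengths from GENCODE M21, an annotation of an older build than the one the reads were aligned to. The median over 16 libraries was 65.2 CPM per kilobase for Gclc, 39.1 for Osgin1, 35.2 for Gclm, 26.2 for Gsr, 23.6 for Nfe2l2, 20.2 for Txnrd1, 13 for Srxn1, 12.0 for Hmox1, 11.3 for Keap1 and 9.65 for Nqo1. Gclc held the first place in 13 of 16 libraries and was never below the second. Of neighbours in this order, only Txnrd1 and Srxn1 had ranges over the 16 libraries that did not overlap, from 16.4 to 23.3 for Txnrd1 and from 9.13 to 16.2 CPM per kilobase for Srxn1. Hmox1 varied between the tenth and the first place. Sense-strand reads made up nearly all of the signal, since at most 1.12% of the stranded counts of any of the 10 genes in any library lay on the opposite strand.

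In neither mutant did any of the 10 genes pass the test. For AUG against AUG_WT, edgeR's quasi-likelihood test called 0 of 10 at an adjusted p of 0.05 (0.0277% of all tested genes were called), and DESeq2 and limma voom also called 0. At an unadjusted p under 0.05 there were 0 of 10, against 8.81% of all tested genes, and in 0 of 10 did the groups not overlap, against 2.05%. For del7 against del7_WT, edgeR called 0 of 10 (0% of all tested genes), DESeq2 and limma voom called 0, and 1 of 10, Hmox1, had an unadjusted p under 0.05, against 1.92% of all tested genes. In del7 too the groups overlapped for all 10, against 4.01% of tested genes whose groups did not. The median log2 fold change of the 10 genes was -0.03 in AUG and -0.06 in del7, beside -0.04 and 0.0001 over all tested genes. The absolute log2 fold change had a median of 0.09 over the 10 genes in each mutant, beside 0.18 over all tested genes in AUG and 0.12 in del7.

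**Figure D1:**
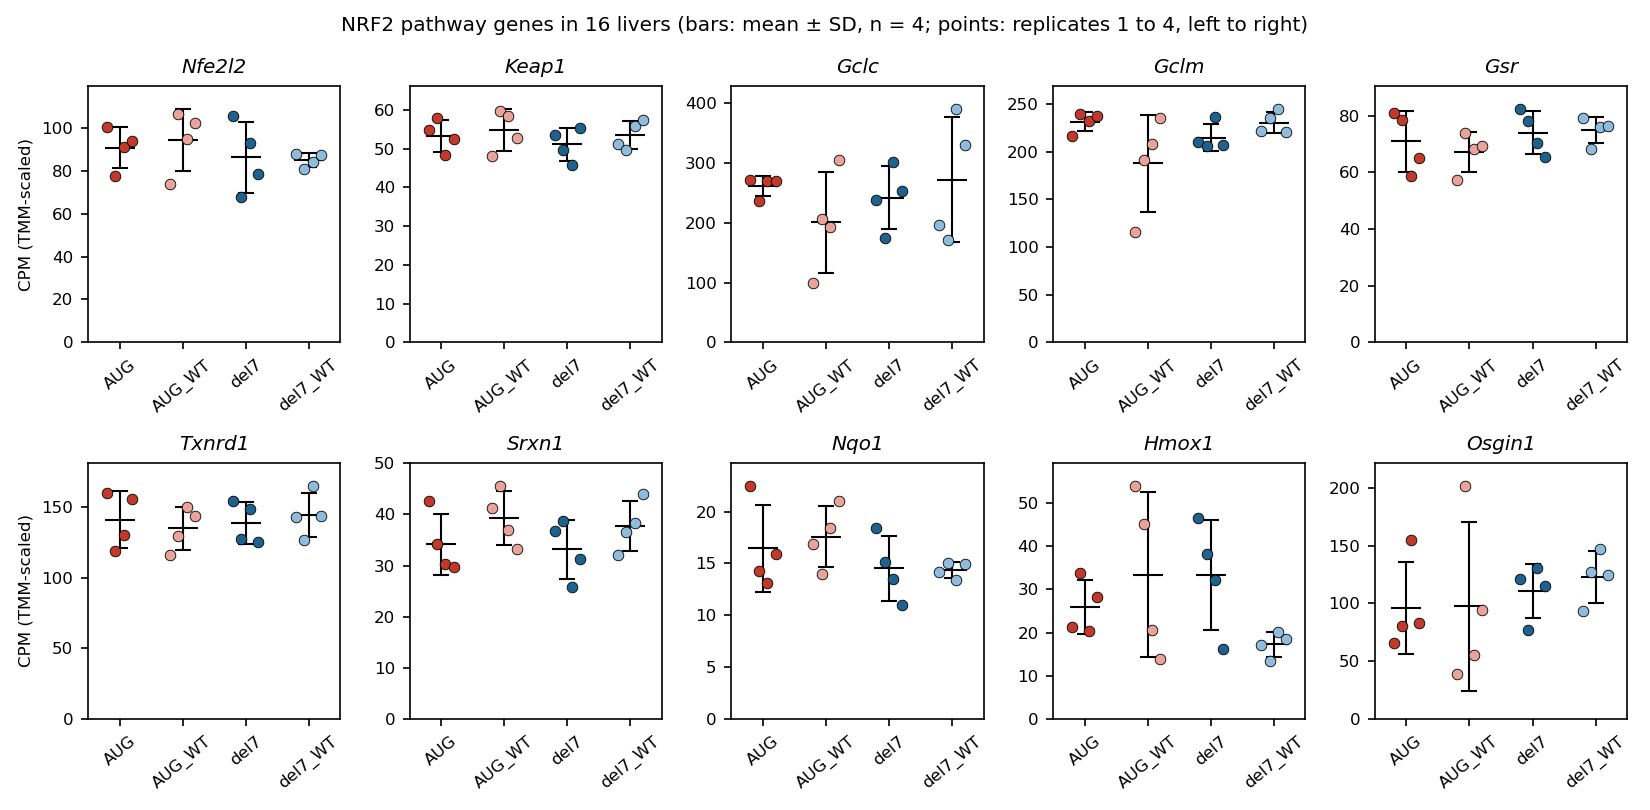
CPM of the 10 genes in each library of AUG, AUG_WT, del7 and del7_WT, with points for replicates 1 to 4 from left to right and black bars for the mean and SD (n = 4). The groups overlap in all 10 panels, and AUG_WT has the widest SD for Gclm, Hmox1 and Osgin1, at 51.0, 19.1 and 73.2 CPM.

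The factor and its repressor were close to level in all groups. Nfe2l2 (ENSMUSG00000015839.7, chromosome 2) had 100.1, 77.4, 91.1 and 93.9 CPM in AUG replicates 1 to 4, against 73.6, 106.1, 94.4 and 102.0 CPM in AUG_WT. In del7 it had 105.3, 67.6, 92.9 and 78.5 CPM, against 87.8, 80.6, 84.1 and 87.1 CPM in del7_WT. The lowest library of all was del7 replicate 2, and the del7_WT libraries lay between the del7 ones. Nfe2l2 differed by -0.05 on the log2 scale (SE 0.14, edgeR adjusted p = 0.933) in AUG and 0.02 (SE 0.14, adjusted p = 1) in del7. The 95% interval ran from -0.35 to 0.25 in AUG and from -0.28 to 0.32 in del7.

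Keap1 (ENSMUSG00000003308.16, chromosome 9) was the steadiest of the 10 over all 16 libraries. It averaged 53.3 ± 4.09 CPM in AUG and 54.7 ± 5.37 CPM in AUG_WT, 51.0 ± 4.26 CPM in del7 livers and 53.5 ± 3.65 CPM in their wild types, del7_WT (SD, n = 4 each). Its lowest library, del7 replicate 3, had 45.7 CPM and its highest, AUG_WT replicate 2, had 59.7 CPM, a ratio of 1.31. The SD of its log2 CPM over the 16 libraries, 0.11, was at or above that of 2.86% of all tested genes. Keap1 had log2 fold changes of -0.04 (SE 0.10, edgeR adjusted p = 0.931) in AUG and -0.07 (SE 0.10, adjusted p = 1) in del7, with 95% intervals from -0.25 to 0.17 and from -0.28 to 0.14.

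Glutamate-cysteine ligase catalyses the rate-limiting step of glutathione synthesis and has a catalytic subunit, encoded by Gclc, and a modifier subunit, encoded by Gclm. Gclc (ENSMUSG00000032350.10, chromosome 9) had 272.0, 237.1, 269.7 and 269.6 CPM in AUG replicates 1 to 4, against 99.7, 206.3, 192.8 and 305.1 CPM in AUG_WT. The AUG libraries were within a narrow band, and AUG_WT lay on both sides of it, with replicate 1 the lowest of all 16 libraries. For Gclc in AUG the log2 fold change was 0.38 (SE 0.30, 95% interval -0.26 to 1.02, edgeR adjusted p = 0.725). It was 0.18 without AUG_WT replicate 1 and 0.66 without AUG_WT replicate 4, and passed in neither case.

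In del7, Gclc had 238.7, 174.2, 302.3 and 252.7 CPM, against 196.9, 171.9, 390.2 and 331.1 CPM in del7_WT. The wild types fell into a low pair, replicates 1 and 2, and a high pair, replicates 3 and 4, and the del7 libraries lay within their range. In log2 units Gclc differed by -0.17 (SE 0.30, 95% interval -0.81 to 0.47, edgeR adjusted p = 1). Without del7_WT replicate 3 it was 0.052.

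Gclm (ENSMUSG00000028124.16, chromosome 3, which also carries Terc) had 216.9, 239.8, 232.5 and 237.3 CPM in AUG replicates 1 to 4, against 116.2, 191.7, 208.4 and 235.1 CPM in AUG_WT. AUG_WT replicate 1 was again the lowest of all 16 libraries, and 2 of 4 AUG libraries lay above every AUG_WT library. For Gclm in AUG the log2 fold change was 0.30 (SE 0.16, 95% interval -0.04 to 0.64, edgeR adjusted p = 0.614). It was 0.15 without AUG_WT replicate 1 and 0.43 without AUG_WT replicate 4. In GENCODE M21 an exon of a predicted gene, Gm6061, overlaps Gclm on the same strand, so part of its reads may have gone uncounted.

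In del7, Gclm averaged 214.7 ± 14.4 CPM, and in del7_WT 230.5 ± 11.2 CPM (SD, n = 4 each), a difference of -0.10 on the log2 scale (SE 0.16, edgeR adjusted p = 1). Outside AUG_WT replicate 1 the modifier subunit was nearly constant: the SD of log2 CPM over the other 15 libraries was 0.10 for Gclm and 0.35 for Gclc. That of Gclm was at or above 4.02% of all tested genes and that of Gclc at or above 66.1%. The ratio of Gclc to Gclm counts was 1.25, 0.989, 1.16 and 1.14 in AUG replicates 1 to 4, and 0.858, 1.08, 0.925 and 1.30 in AUG_WT. It was 1.14, 0.847, 1.28 and 1.22 in del7, against 0.887, 0.732, 1.60 and 1.50 in del7_WT, so that the span of both wild-type groups covered their mutants.

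**Figure D2:**
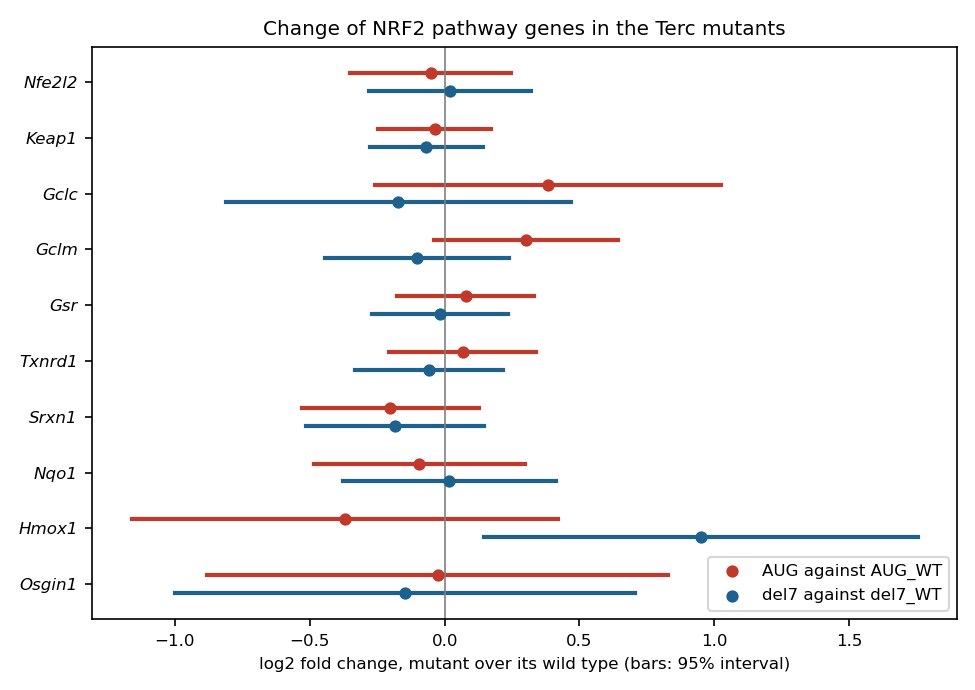
log2 fold change of each gene, AUG over AUG_WT and del7 over del7_WT (points), with 95% intervals from the edgeR fit (bars). The interval of Hmox1 in del7, from 0.15 to 1.75, is the only one of 20 that does not cross 0, before adjustment for the number of genes tested.

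The genes of reductases that restore glutathione and thioredoxin had similar means in mutants and wild types. Gsr (ENSMUSG00000031584.17, chromosome 8), glutathione reductase, averaged 70.9 ± 10.7 CPM in AUG and 67.2 ± 6.95 CPM in AUG_WT, 74.0 ± 7.56 CPM in del7 livers and 74.9 ± 4.71 CPM in their wild types, del7_WT (SD, n = 4 each). Its log2 fold change was 0.08 (95% interval -0.18 to 0.33, edgeR adjusted p = 0.864) in AUG and -0.02 (95% interval -0.27 to 0.24, adjusted p = 1) in del7. Txnrd1 (ENSMUSG00000020250.12, chromosome 10), the cytosolic thioredoxin reductase, averaged 141.2 ± 19.9 CPM in AUG and 134.9 ± 15.3 CPM in AUG_WT, 138.9 ± 14.9 CPM in del7 livers and 144.6 ± 15.7 CPM in their wild types, del7_WT (SD, n = 4 each). For Txnrd1 it was 0.07 (95% interval -0.21 to 0.34, edgeR adjusted p = 0.896) in AUG and -0.06 (95% interval -0.33 to 0.22, adjusted p = 1) in del7. Over all 16 libraries the highest CPM was 1.43 times the lowest for Gsr and 1.42 times for Txnrd1.

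Srxn1 (ENSMUSG00000032802.9, chromosome 2) encodes sulfiredoxin, which repairs overoxidized peroxiredoxins. It had 42.6, 34.2, 30.3 and 29.7 CPM in AUG replicates 1 to 4, against 41.3, 45.6, 36.9 and 33.3 CPM in AUG_WT. It had 36.8, 38.7, 25.7 and 31.4 CPM in del7, against 32.1, 36.5, 38.3 and 44.1 CPM in del7_WT. The mean was lower in both mutants than in their wild types, with wide overlap. The log2 fold change was -0.20 in AUG (SE 0.15, 95% interval -0.53 to 0.13, edgeR adjusted p = 0.721) and -0.19 in del7 (SE 0.16, 95% interval -0.52 to 0.15, adjusted p = 1).

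Nqo1 (ENSMUSG00000003849.9, chromosome 8) encodes a quinone reductase and is often used to read NRF2 activity. It had 22.5, 14.3, 13.1 and 16.0 CPM in AUG replicates 1 to 4, against 16.8, 14, 18.4 and 21.1 CPM in AUG_WT. It had 18.4, 15.2, 13.5 and 10.9 CPM in del7, against 14.2, 15.1, 13.4 and 14.9 CPM in del7_WT. Replicate 1 held the highest value in both mutants, and del7_WT was within a band of 13.4 to 15.1 CPM. Nqo1 had log2 fold changes of -0.09 (SE 0.18, 95% interval -0.48 to 0.30, edgeR adjusted p = 0.898) in AUG and 0.02 (SE 0.18, 95% interval -0.38 to 0.41, adjusted p = 1) in del7.

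Osgin1 (ENSMUSG00000074063.11, chromosome 8) encodes a growth inhibitor induced by oxidative stress. It had the widest range of the 10 genes, with the highest CPM 5.17 times the lowest. It had 66.0, 80.1, 154.7 and 82.8 CPM in AUG replicates 1 to 4, against 39, 201.8, 55.4 and 94.4 CPM in AUG_WT. It had 121.4, 77.4, 130.6 and 114.8 CPM in del7, against 93.3, 127.2, 147.1 and 124.5 CPM in del7_WT. AUG_WT held both the lowest library, replicate 1, and the highest, replicate 2. The log2 fold change was -0.03 (SE 0.40, 95% interval -0.88 to 0.83, edgeR adjusted p = 0.989) in AUG and -0.15 (SE 0.40, 95% interval -1.0 to 0.71, adjusted p = 1) in del7. In AUG it was 0.61 without AUG_WT replicate 2 and -0.27 without AUG_WT replicate 1, so these data do not fix its direction.

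Hmox1 (ENSMUSG00000005413.9, chromosome 8) encodes heme oxygenase 1, which breaks down heme and, beside NRF2, is controlled by the heme-sensing repressor BACH1. In liver it is strongly expressed in Kupffer cells, the resident macrophages that clear old red cells. It had 46.5, 38.1, 32.1 and 16.3 CPM in del7 replicates 1 to 4, against 17.2, 13.4, 20.1 and 18.4 CPM in del7_WT. The first 3 del7 libraries lay above every del7_WT library, and the fourth lay among them. The means were 33.2 ± 12.7 CPM in del7 livers and 17.3 ± 2.86 CPM in their wild types (SD, n = 4 each), a difference of 0.95 on the log2 scale (SE 0.38, 95% interval 0.15 to 1.75, unadjusted p = 0.0234, edgeR adjusted p = 1). Hmox1 was number 105 of 14421 tested genes in order of p in this comparison.

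The size of the del7 value of Hmox1 depended on the libraries used. With any 1 of 9 libraries left out (8 of the compared groups and AUG_WT replicate 1), it ranged from 0.74 to 1.17. These ends came without del7 replicate 1 and without del7 replicate 4. Without 1 del7_WT library it was 0.84 to 1.03, and with all 8 wild types as the control it was 0.47. AUG_WT replicates 1 and 2 were as high as the first del7 libraries. Of 18 alternatives, 14 had an unadjusted p under 0.05. In edgeR's test the unadjusted p was 0.00424 with the compared groups alone, the smallest, and 0.157 with all 8 wild types as the control, the largest. It was 0.0810 without del7 replicate 1, 0.0514 without del7 replicate 2 and 0.0629 without del7_WT replicate 2. Over all alternatives for this value the adjusted p ranged from 0.390 to 1.

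In the AUG line Hmox1 had 21.2, 33.9, 20.4 and 28.2 CPM in AUG replicates 1 to 4, against 53.9, 45.0, 20.7 and 14 CPM in AUG_WT. The wild types spanned the AUG libraries on both sides. The log2 fold change was -0.37 (SE 0.37, 95% interval -1.16 to 0.42, edgeR adjusted p = 0.786), and -0.01 without AUG_WT replicate 1.

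Markers of Kupffer cells were higher in the same del7 libraries as Hmox1. The 12 markers, all with counts in every group, summed to 669.6, 732.2, 696.0 and 443.6 CPM in del7 replicates 1 to 4, against 398.0, 272.5, 388.0 and 449.1 CPM in del7_WT. All 12 had a log2 fold change above 0 in del7, with a median of 0.77, and 0 passed the test. Over all tested genes the median was 0.0001, and 49.9% were below 0. For AUG_WT against del7_WT, 11 of the 12 markers were also above 0, with a median of 0.74. That median includes AUG_WT replicate 1, with a marker sum of 1100 CPM against 419.9 to 496.8 CPM in the other AUG_WT libraries. It was not refitted without that library. Neutrophil markers in del7 were above 0 for 4 of 4 tested (of 6 listed), with a median of 1.28 and 0 passing. Their level was low, with sums of 6.92 to 14.8 CPM in del7 and 3.12 to 5.72 CPM in del7_WT. In the AUG line the Kupffer cell marker sums were 449.4, 894.8, 619.8 and 388.9 CPM in AUG, against 1100, 421.0, 496.8 and 419.9 CPM in AUG_WT. For AUG against AUG_WT, 5 of 12 Kupffer cell markers were above 0. AUG_WT replicate 1 was the highest of all 16 libraries both for Hmox1 and for the marker sum, but AUG_WT replicate 2, second highest for Hmox1 in that group, had a marker sum about as low as that of AUG_WT replicate 4, the lowest for Hmox1. Erythroid markers summed to 149.6 to 985.3 CPM in del7 and 128.4 to 403.1 CPM in del7_WT, with all 6 tested markers above 0 and 0 passing. In the AUG line they summed to 137.8 to 529.9 CPM in AUG and 132.5 to 2966 CPM in AUG_WT, with 0 of 6 above 0. The erythroid sum was 132.5 CPM in AUG_WT replicate 1, the highest library for Hmox1. It was 2966 CPM in AUG_WT replicate 4, the lowest of AUG_WT for Hmox1. What Kupffer or red cell content contributes to the Hmox1 values was not tested.

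**Figure D3:**
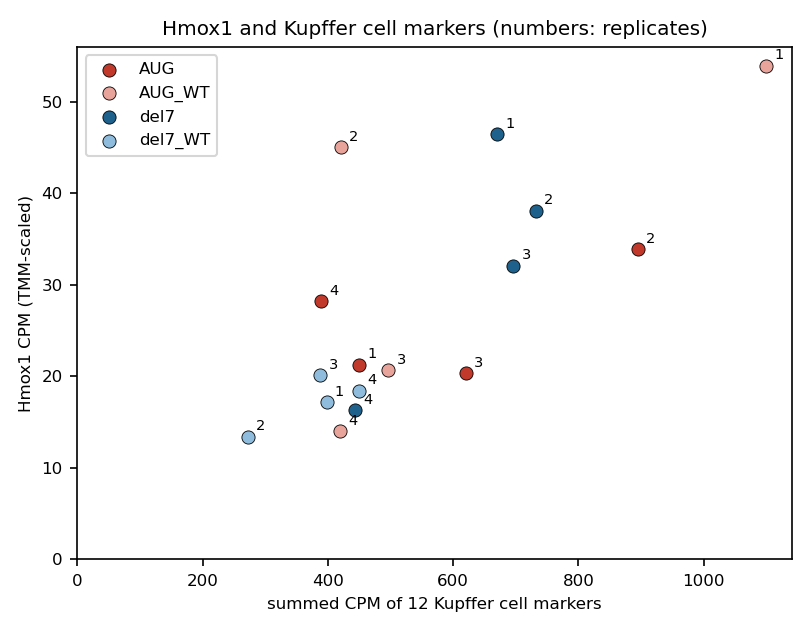
Hmox1 CPM (vertical axis) against the summed CPM of 12 Kupffer cell markers (horizontal axis) in the 16 libraries, coloured by group and numbered by replicate. Replicates 1 to 3 of del7 lie at 32.1 to 46.5 CPM of Hmox1 and marker sums of 669.6 to 732.2 CPM, apart from the del7_WT libraries, and del7 replicate 4 lies among these.

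The effects of the mutants were compared with each other by testing the AUG effect minus the del7 effect. Of the 10 genes, 0 passed (0.00693% of all tested genes were called), DESeq2 and limma voom called 0, and 1, Hmox1, had an unadjusted p under 0.05, against 5.21% of all tested genes. The difference for Hmox1 was -1.32 on the log2 scale (SE 0.53, 95% interval -2.45 to -0.19, unadjusted p = 0.0246, edgeR adjusted p = 0.864), with -0.37 in AUG and 0.95 in del7. Without AUG_WT replicate 1 it was -0.96, with an unadjusted p of 0.0697. For Gclm the difference was 0.40 (SE 0.23, 95% interval -0.08 to 0.89, edgeR adjusted p = 0.864), and for Gclc 0.55 (SE 0.43, 95% interval -0.35 to 1.46, adjusted p = 0.885). Without AUG_WT replicate 1 these were 0.26 for Gclm and 0.36 for Gclc.

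The wild types of the lines were also compared, since each mutant is read against its own. Of the 10 genes 0 passed for AUG_WT against del7_WT (0.0347% of all tested genes were called), DESeq2 and limma voom called 0, and the groups overlapped for all 10, against 3.53% of tested genes whose groups did not. Hmox1 was the 1 gene with an unadjusted p under 0.05, against 11.8% of all tested genes. It averaged 33.4 ± 19.1 CPM in AUG_WT and 17.3 ± 2.86 CPM in del7_WT (SD, n = 4 each), a difference of 0.96 on the log2 scale (SE 0.38, unadjusted p = 0.0227, edgeR adjusted p = 0.340), and 0.60 without AUG_WT replicate 1. With all libraries the difference between the wild types was as large as the difference between del7 and del7_WT. Without AUG_WT replicate 1 it was smaller, since the del7 value in that fit was 0.94. Both differences are taken from the same del7_WT libraries.

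The 10 genes did not move as a block from library to library. Over the 15 libraries other than AUG_WT replicate 1, the 45 pairs of genes had a median Pearson correlation of log2 CPM of 0.09, with 6 pairs above 0.5 and 2 pairs below -0.5. The highest value was that of Keap1 and Srxn1 at 0.66, and the lowest that of Nqo1 and Osgin1 at -0.55. Gclc and Gclm were at 0.50, and at 0.78 with AUG_WT replicate 1 included. Nfe2l2 was at 0.53 with Txnrd1 and 0.51 with Nqo1. These values are a description over libraries that share lines and groups.

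**Figure D4:**
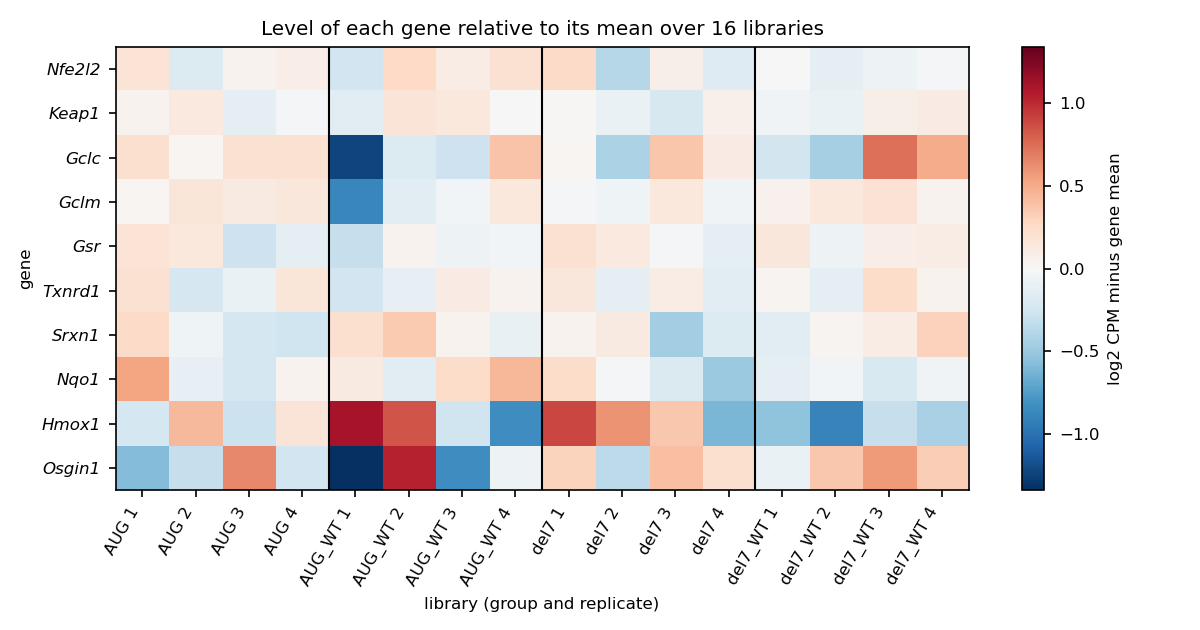
log2 CPM of each gene (rows) minus its mean over 16 libraries, by library (columns), with red above and blue below the mean. Gclc, Gclm and Osgin1 are lowest and Hmox1 is highest in AUG_WT replicate 1, while the rows of Keap1, Gsr and Txnrd1 stay pale throughout.

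AUG_WT replicate 1 split the 10 genes. Relative to the mean of the other 3 AUG_WT libraries it lay at -1.38 for Osgin1, -1.20 for Gclc and -0.86 for Gclm on the log2 scale, and at 1.19 for Hmox1. It was the lowest of all 16 libraries for Gclc, Gclm, Gsr, Txnrd1 and Osgin1. For Nqo1 it lay at -0.06 and for Srxn1 at 0.11. Its B and plasma cell markers summed to 731.0 CPM, the highest value of AUG_WT, and its proliferation markers to 375.9 CPM, and their part in these values was not tested.

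Against genes of like level, Hmox1 and Osgin1 varied most. Over the 15 other libraries the SD of log2 CPM of Hmox1, 0.58, was at or above that of 97.6% of the 500 genes closest in mean level, and that of Osgin1, 0.50, at or above 96.2%. For Gclc the share was 84.2% and for Nqo1 77.0%. For Gclm it was 11.4% and for Keap1 15.6%.

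For each member the gene with the most similar pattern over those 15 libraries was sought among 11990 genes with a mean of at least 1 CPM, and the 4 closest matches are given. Nfe2l2 was closest to Urgcp, with a Pearson correlation of 0.92 over 15 and over 16 libraries. Gclm was closest to Vamp8, at 0.88 over 15 and 0.91 over 16 libraries. Osgin1 was closest to Eps15, at 0.87 over 15 but 0.13 over 16 libraries, and Txnrd1 to Mrpl50, at 0.87 and 0.79. The lowest such value of any member was 0.80, for Gclc. The best of 11990 genes over 15 libraries is high by selection alone, so these matches describe the libraries and do not show shared control.

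Other genes of the pathway were taken as 6 lists, whose medians were not refitted without AUG_WT replicate 1. For comparison, 7 of 8 hepatocyte markers were above 0 in AUG, with a median of 0.10. In del7 1 of 8 was above 0, with a median of -0.07. Genes that regulate NRF2 or pair with it, such as the ligase subunits Cul3 and Rbx1, the repressor Bach1 and the small MAF genes, had 0 of 13 members called in either mutant. Their median log2 fold change was 0.04 in AUG and -0.04 in del7. The smallest p was that of Mafk, a small MAF partner of NRF2, with 12.2, 14.6, 14 and 16.3 CPM in AUG replicates 1 to 4, against 17.5, 22.2, 19.0 and 19.1 CPM in AUG_WT. All AUG libraries lay below all AUG_WT libraries, and the groups did not overlap for 2.05% of all tested genes in this comparison. Mafk had a log2 fold change of -0.45 in AUG (SE 0.11, unadjusted p = 0.00120, edgeR adjusted p = 0.561), with -0.51 to -0.37 when any 1 library was left out. For del7 Mafk averaged 17.3 ± 0.857 CPM, against 17.8 ± 1.52 CPM in del7_WT (SD, n = 4 each), and the difference between the mutant effects was -0.41 (SE 0.16, edgeR adjusted p = 0.864).

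Other detoxification targets of NRF2 (glutathione S-transferases, UDP-glucuronosyltransferases, ABC exporters, carbonyl and aldehyde reductases) had 26 of 27 members tested, and 0 were called in either mutant. In AUG 17 were above and 9 below 0, with a median log2 fold change of 0.13, and in del7 9 were above and 17 below, with a median of -0.03. The 4 members with the smallest p in AUG went in both directions: the glutathione S-transferases Gstm2 at -0.65 (SE 0.32), Gstm3 at -0.59 (SE 0.34) and Gstm4 at 0.36 (SE 0.23), and the glucuronosyltransferase Ugt2b5 at 0.45 (SE 0.29). The transferases have close paralogs that may share reads, and Gstm3 was at -1.02 without AUG replicate 1 and -0.38 without AUG replicate 3. Ugt2b5 had 390.2 to 460.9 CPM in AUG and 118.4 to 462.5 CPM in AUG_WT. Its value was not refitted with libraries left out. Between the wild types, Abcc4, an exporter that NRF2 controls, averaged 37.9 ± 5.31 CPM in AUG_WT and 20.2 ± 3.45 CPM in del7_WT (SD, n = 4 each), a difference of 0.91 on the log2 scale (SE 0.24, edgeR adjusted p = 0.287).

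Genes of glutathione synthesis and use had 12 of 14 members tested and 0 called. Ggt1 and Slc7a11 did not pass the filter on low counts and were not tested. Their median log2 fold change was 0.21 in AUG, with 9 above 0, and -0.04 in del7, with 3 above 0. Slc3a2, the heavy chain of the cystine and glutamate exchanger, had 55.6, 50.9, 56.6 and 39 CPM in AUG replicates 1 to 4, against 43.8, 38.8, 42.4 and 36.2 CPM in AUG_WT. This was a difference of 0.33 on the log2 scale (SE 0.13, unadjusted p = 0.0235, edgeR adjusted p = 0.561), and 3 of 4 AUG libraries lay above every AUG_WT library. Next by p in AUG were Gpx4, which reduces lipid peroxides, at -0.25 (SE 0.13), Chac2, a glutathione-degrading enzyme, at 0.42 (SE 0.22), and Gss, glutathione synthetase, at 0.30 (SE 0.16). Chac2 was at 0.20 without AUG_WT replicate 1, where it had 6.94 CPM, against 15.5 to 19.1 CPM in the other AUG_WT libraries, and Gss was at 0.16 with all 8 wild types as the control. In del7, Glrx2, a mitochondrial glutaredoxin, had 20.1, 16.4, 15.6 and 17.2 CPM, against 24.5, 21.0, 24.1 and 21.7 CPM in del7_WT. The groups did not overlap, as was so for 4.01% of all tested genes in del7. The log2 fold change of Glrx2 was -0.40 (SE 0.15, unadjusted p = 0.0201, edgeR adjusted p = 1).

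Genes of thioredoxins and peroxide removal had 18 of 18 members tested and 0 called. In AUG 12 were above 0, with a median log2 fold change of 0.14, and in del7 2 of 18 were above 0, with a median of -0.11, while the medians over all tested genes were -0.04 and 0.0001. Txnip, the thioredoxin inhibitor, was at -0.58 (SE 0.35) in AUG and -0.57 (SE 0.35) in del7, and did not pass in either (edgeR adjusted p = 0.645 and 1). With 1 library left out Txnip ranged from -0.94 (without AUG replicate 4) to -0.15 (without AUG_WT replicate 4) in AUG. In del7 it was at -0.37 without del7_WT replicate 3. Sesn2, a stress-induced regulator of KEAP1 turnover, was at -0.27 (SE 0.13, adjusted p = 1) in del7.

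Genes that make NADPH, the reductant these enzymes use, had 8 of 8 members tested and 0 called, with medians of -0.03 in AUG and -0.01 in del7. G6pdx, the first enzyme of the pentose phosphate pathway, averaged 10.1 ± 2.51 CPM in del7 livers and 6.04 ± 1.23 CPM in their wild types, del7_WT (SD, n = 4 each), a difference of 0.74 on the log2 scale (SE 0.41, edgeR adjusted p = 1). With all 8 wild types as the control the del7 value was 0.31. In AUG G6pdx was at -0.54 (SE 0.41, adjusted p = 0.717) and, without AUG_WT replicate 1, at 0.29.

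Genes of heme and iron handling, listed because Hmox1 acts in that pathway, had 13 of 14 members tested and 0 called. The medians were 0.10 in AUG and 0.06 in del7. Haptoglobin, encoded by Hp, which binds free hemoglobin and is also an acute phase protein, had 2059, 2106, 1568 and 1419 CPM in del7 replicates 1 to 4, against 1048, 981.4, 1152 and 1374 CPM in del7_WT. All del7 libraries lay above all del7_WT libraries, and the groups did not overlap for 4.01% of all tested genes in this comparison. The log2 fold change of Hp was 0.65 (SE 0.29, unadjusted p = 0.0410, edgeR adjusted p = 1). Hemopexin, encoded by Hpx, which binds free heme, had 0.45 (SE 0.30), and Tfrc, the transferrin receptor, 0.67 (SE 0.39), or 0.42 without del7 replicate 1. With all 8 wild types as the control Hp was at 0.36 and Hpx at 0.22. In AUG the smallest p was that of Cpox, an enzyme of heme synthesis, at 0.52 (SE 0.21, unadjusted p = 0.0283, edgeR adjusted p = 0.561), with 138.1 to 179.4 CPM in AUG and 61.7 to 142.2 CPM in AUG_WT, and 0.34 without AUG_WT replicate 1.

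**Figure D5:**
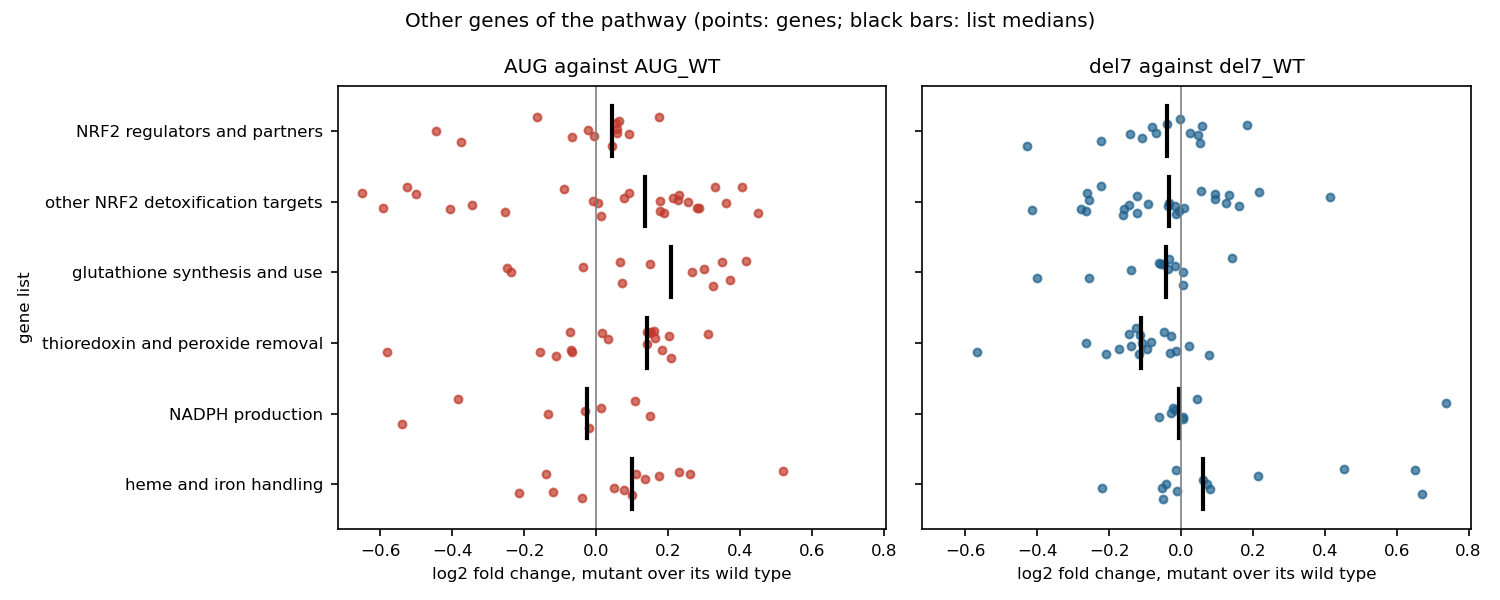
log2 fold changes of the tested members of 6 lists of NRF2-related genes (points) and list medians (black bars), AUG over AUG_WT on the left and del7 over del7_WT on the right. None of the points passed the test, and the medians lie between -0.11 and 0.21.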

How the data were processed

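RNA was measured in 16 mouse liver libraries in 4 groups of 4, grouped by title. Per the labels' protocols, ribosomal RNA was depleted and a strand-keeping kit was used. Per the submitters' processing notes, the tools were cutadapt 2.10 and STAR 2.7.9a and the genome was GRCm39, with an annotation whose release is not stated there. Deposited values are raw gene counts: 1 table for the series, and per sample an unstranded, a forward and a reverse column. The series table equalled the reverse column in all 16 samples. Lines for unmapped (2.82% to 3.93%), multimapping (9.23% to 15.0%), unassigned (21.8% to 35.0%) and ambiguous reads (0.802% to 1.00%) stayed out of library sizes and tests. Gene names came from GENCODE M21, which named 52081 of 55357 identifiers.

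The test was edgeR's quasi-likelihood F-test (edgeR 4.0.16, R 4.3.3), with filterByExpr at a minimum count of 10, TMM scaling and 1 mean per group fitted to the 16 libraries together (12 residual degrees of freedom). P-values are two-sided and were adjusted by Benjamini-Hochberg across 14421 genes; the threshold was 0.05. The median SE of a log2 fold change was 0.22 in either mutant. Intervals of fold changes use the fitted SE and the moderated degrees of freedom; log2 CPM carries a prior count of 2. The pipeline was tested on simulated data. With changes planted in AUG, it called 49.5% of 2-fold and 80.6% of 4-fold changes, with 7 false calls. With changes planted in del7 it called 50% and 78%, with 9 false calls. The simulated data had no outlying library, and more genes were changed than were called here in either mutant. These shares are therefore not the power of the tests on these data. Members of each list are named if among the 4 smallest p of the list in a comparison. All library pairs differed by more than counting noise (chi-square of at least 9.21 per gene). The members and lists were chosen with earlier results of these data known. Alternatives were the unstranded column, RLE size factors, DESeq2 1.42.0, no filter, a floor of 1 CPM on the mean, limma 3.58.1 (voom), the compared groups alone, a replicate block, all 8 wild types as control, and leaving out each library.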

Additional observations from a re-analysis of the deposited data

Results flagged for a closer look

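Of 40 sets of 4 libraries (10 genes in 4 groups), 2 held a library whose gap to the nearest other one exceeded Dixon's 95% critical share of the group's range; chance flags about 1 group in 20. Gclc was 237.1 CPM in AUG replicate 2, the lowest of AUG, where the other libraries had 269.6 to 272.0 CPM. Gclm was 236.2 CPM in del7 replicate 3, the highest of del7, where the others had 205.7 to 209.7 CPM.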

How the results depend on the processing

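The count of members called was 0 in each of the 4 comparisons under all alternatives run. None of the 740 alternative values, counted over genes, comparisons and settings, passed. Of these, 62 had the opposite sign to the reported value. With all 8 wild types as control, log2 fold changes in AUG became 0.021 for Nfe2l2, 0.051 for Nqo1, 0.11 for Hmox1 and -0.0011 for Gsr. In del7 they became -0.053 for Nfe2l2, -0.13 for Nqo1, 0.048 for Gclc, 0.045 for Gclm, 0.061 for Gsr and 0.019 for Osgin1. In AUG, Osgin1 became 0.17 by limma voom and 0.034 with the replicate block, and Keap1 0.0015 without a filter. Between the wild types Keap1 became -0.0047 without a filter. For the difference between the mutant effects Srxn1 became 0.039 without a filter, 0.0039 by DESeq2 and 0.0048 with the replicate block.

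With 1 library left out, AUG values ranged from -0.35 to 0.61 for Osgin1, -0.13 to 0.019 for Nfe2l2, -0.078 to 0.017 for Keap1, -0.28 to 0.0098 for Nqo1 and -0.74 to 0.29 for G6pdx. In del7 they ranged from -0.093 to 0.12 for Nfe2l2, -0.12 to 0.12 for Nqo1, -0.073 to 0.032 for Gsr, -0.34 to 0.052 for Gclc and -0.12 to 0.011 for Txnrd1. The difference ranged from -0.010 to 0.089 for Keap1, -0.13 to 0.080 for Srxn1, -0.21 to 0.77 for Osgin1, -0.17 to 0.049 for Nfe2l2 and -0.29 to 0.035 for Nqo1. Between the wild types it ranged from -0.025 to 0.070 for Keap1 and -0.035 to 0.14 for Srxn1. The cause of these shifts was not tested.

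Replicate numbers were not taken to pair libraries, since not every same-numbered pair had a correlation of deviations over 0.1. The correlations were -0.16 to 0.35 for AUG and AUG_WT (the same number was the best partner in 1 of 4) and 0.092 to 0.28 for del7 and del7_WT (3 of 4). They were 0.060 to 0.28 for AUG and del7 (3 of 4). With the replicate block 0 members were called, and Hmox1 in del7 was at 0.84. Over all genes, AUG had 4 calls, 3 to 12 over the alternatives, and AUG_WT against del7_WT 5 calls, 1 to 79, with the most by DESeq2 in both. Nqo1 and Hmox1 had the fewest counts in a library, 88 and 131, and so the most counting error.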

Other observations

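Between the wild types, all 8 genes of NADPH production had a log2 fold change above 0 for AUG_WT against del7_WT, with a median of 0.19 beside 0.03 over all tested genes, and 0 of 8 passed edgeR's test. G6pdx had 24.6, 6.16, 6.59 and 5.83 CPM in AUG_WT replicates 1 to 4, against 5.88, 4.92, 5.58 and 7.78 CPM in del7_WT, so its value of 0.85 (SE 0.41, edgeR adjusted p = 0.444) was carried by AUG_WT replicate 1. For the AUG effect minus the del7 effect, 9 of 12 genes of glutathione synthesis and use were above 0, with a median of 0.33 beside -0.04 over all tested genes, and 0 passed. Hepatocyte markers were above 0 for 7 of 8 in the same difference, with a median of 0.20. The list median was not refitted without AUG_WT replicate 1, the library with the lowest hepatocyte marker sum. Slc3a2 stood at 0.46 (SE 0.18) and Glrx2 at 0.47 (SE 0.22) in this difference, both with an edgeR adjusted p of 0.864.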
